A study of Mus musculus with 9 samples.

Results

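The postsynaptic density scaffolds and kinases described here are Dlg3, Dlg4, Shank1, Shank2, Shank3, Camk2a, Camk2b, Dlgap1 and Dlgap3. They were taken by gene symbol, and they are 9 of the 52550 genes in the expression tables. All 9 were among the 17080 genes that reached 1 TPM (a level per transcript length that sums to a fixed total in each library) in at least 3 of the 9 libraries.

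Cerebral cortex RNA was sequenced in 3 groups of 3 libraries, from male mice of the C57BL/6N strain aged 9 to 12 weeks. The sham group had the neck surgery without insertion of a filament. The control oligo and knockdown groups had middle cerebral artery occlusion (MCAO), a filament model of ischemic stroke, for 1 h with 6 h of reperfusion, and their tissue was the infarcted cortex of that side. Before MCAO these mice received locked nucleic acid antisense oligos through the lateral ventricles, directed against the enhancer RNA eRNA_06347 (knockdown 2, 3 and 4) or of a negative control sequence (control oligo 1, 2 and 3). No oligo is given for the sham mice, and the sham libraries were reused from previous work of the laboratory. Stroke, oligo delivery and data set therefore cannot be told apart in either comparison with sham. The level of eRNA_06347 was not analysed here.

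The postsynaptic density is the protein layer beneath the membrane of excitatory synapses. Membrane-associated guanylate kinases such as PSD-95 hold glutamate receptors there, SAPAP proteins bind these guanylate kinases, and Shank proteins bind SAPAPs and link the layer to Homer and actin. Calcium/calmodulin-dependent protein kinase II (CaMKII), assembled mostly from alpha and beta subunits in forebrain, is the abundant kinase of the layer and is central to synaptic plasticity. Camk2a mRNA and the mRNAs of Shank and SAPAP family members are known to be carried into dendrites, for which 3′ untranslated regions (3′ UTRs) matter.

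Several results below turn on where coding sequence ends and the 3′ UTR begins. The last 30 coding bases of the leading transcript (the one with the highest mean TPM) are therefore given for 5 members, 5′ to 3′ on the coding strand, with the stop codon in capitals. They come from GENCODE M21 on GRCm38.
Dlg3-202: atttgggtcccatcccctgaaaaactcTGA
Dlg4-203: atctgggtcccagcccgagagagactcTGA
Shank1-203: cgggctctcaaatttttcctggagaggTGA
Dlgap1-211: tacatccccgaggcgcagacccggctcTGA
Dlgap3-202: tacatccccgaggcccagaccaggctgTGA
The stop codons lie at chrX:100816323-100816325, chr11:70044693-70044695, chr7:44357335-44357337, chr17:70818232-70818234 and chr4:127236366-127236368, all on the plus strand and each in the last exon of its transcript. Before the stop codon Dlgap1 and Dlgap3 were identical at 24 of 27 positions, and Dlg3 and Dlg4 at 21 of 27. The Dlgap3 model ends at its stop codon and carries 0 bases of 3′ UTR, whereas Shank1-203 carries 3235 and Dlgap1-211 carries 3175.

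The libraries differed by data set before any gene was compared. Sham libraries held 2.98 to 3.18 gigabases of aligned sequence and MCAO libraries 4.92 to 5.52 gigabases, as estimated from the coverage values. The most frequent sum of coverage over a single-exon transcript was 51 bases in every sham library and 282 in every MCAO library. These values do not show whether the sham libraries were read in pairs. In the comparison of control oligo with sham, the median log2 change of all genes was 0.56 in TPM. It was 0.01 after median-ratio scaling, in which a library is divided by the median, over genes, of its ratio to the geometric mean of all libraries. When TPM was recomputed over nuclear protein-coding genes alone the median was -0.52. Directions of the members against sham are therefore given on all 3 scales. Fold changes are on the log2(TPM + 1) scale, and p-values measure only the spread between these samples.

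In sham cortex Camk2a had the highest level (235 ± 35.5 TPM, SD, n = 3). Camk2b (157 ± 17.7), Dlg4 (109 ± 8.03), Dlgap1 (98.8 ± 11.7) and Dlg3 (53.8 ± 3.95) followed it. Dlgap3 (29.96 ± 0.914), Shank1 (20.5 ± 6.47), Shank3 (17.9 ± 3.59) and Shank2 (12.5 ± 1.18) were lowest. Dlg4 overlapped Dlgap1 in this order, and Shank1 overlapped Shank3. In the control oligo group Dlg4 stood above Camk2b, and Dlgap3 stood above Dlg3 with overlapping values. The Shank genes were the 3 lowest there by mean, although Shank1 overlapped Dlg3.

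**Figure D1:**
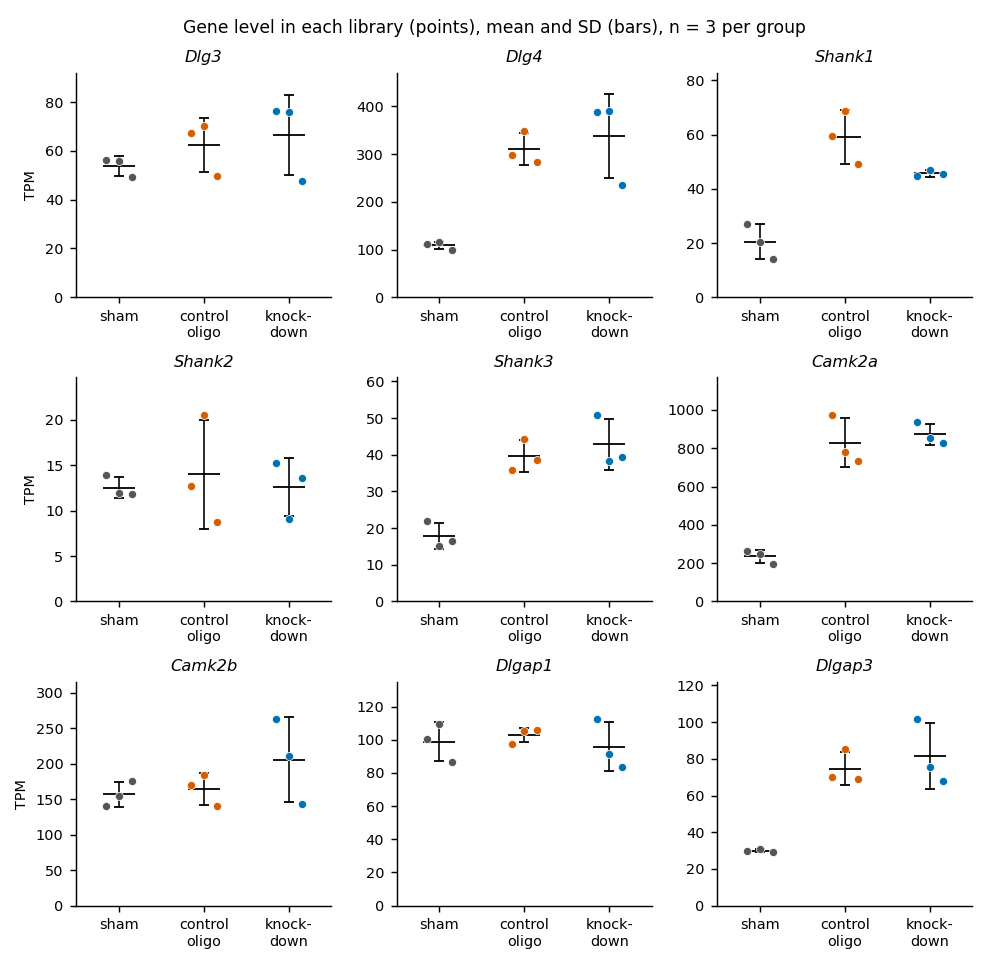
Level of each gene in TPM (linear axis from 0) in the sham, control oligo and knockdown libraries. Points are libraries, and bars are the mean and SD of 3 libraries. For Camk2a, Dlg4, Shank1, Shank3 and Dlgap3 all 6 MCAO libraries lie above all 3 sham libraries.

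Of the 9 genes, 5 were higher in control oligo than in sham cortex in TPM and 0 were lower, by limma with a Benjamini-Hochberg adjusted p under 0.05. The same limits were passed by 52.6% of all genes in the higher and 12.8% in the lower direction. The 5 were Camk2a, Dlg4, Shank1, Shank3 and Dlgap3. After median-ratio scaling the same 5 passed higher, beside 26.1% of all genes, and Dlg3, Camk2b and Dlgap1 passed lower, beside 29.2%. Over nuclear protein-coding genes only Camk2a passed higher, beside 9.19% of all genes, and Dlg3, Shank2, Camk2b and Dlgap1 passed lower, beside 52.0%. Non-overlapping groups, the 5 higher and 0 lower, stood beside 56.2% and 14.2% of all genes. The median change of the 9 members was 1.11 in TPM, 0.47 after scaling and -0.15 over nuclear protein-coding genes, each above the median of all genes on its scale. In the scaled coverage of coding bases, described below, it was 0.044 beside 0.036 for all genes. In that of 3′ UTR bases it was 0.81 beside 0.02.

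In knockdown against sham the same 5 genes passed higher in TPM and 0 lower, beside 52.7% and 12.5% of all genes, and the same 5 did not overlap, beside 57.8% higher and 14.2% lower. After median-ratio scaling Dlg4, Shank3, Camk2a and Dlgap3 passed higher, beside 22.7%, and Shank2 and Dlgap1 lower, beside 27.1%. Over nuclear protein-coding genes Camk2a passed higher, beside 8.21%, and Dlg3, Shank2, Camk2b and Dlgap1 lower, beside 47.9%. Both comparisons use the same sham libraries.

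Camk2a encodes the alpha subunit of CaMKII. Its TPM was 262, 248 and 195 in sham, 975, 780.4 and 734 with the control oligo, and 935, 854 and 828 with the knockdown. Every MCAO library was at least as high as 734, and no sham library passed 262. The log2 change of control oligo against sham was 1.82 ± 0.16 (SE, limma adjusted p = 3.6e-05). It was 1.15 after median-ratio scaling (adjusted p = 0.00056) and 0.51 over nuclear protein-coding genes (adjusted p = 0.0081), so the gene was higher on all 3 scales. Knockdown against sham gave 1.90, 1.18 and 0.56 in the same order, and all 3 passed.

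Camk2b encodes the beta subunit, which binds actin. Sham libraries held 141, 154 and 176 TPM, control oligo libraries 169.7, 184 and 140.4, and knockdown libraries 263, 211 and 144. The 3 groups overlapped, and the change of control oligo against sham was 0.07 ± 0.14 (limma adjusted p = 0.70). After median-ratio scaling it was -0.60 (adjusted p = 0.0097), and over nuclear protein-coding genes -1.24 (adjusted p = 0.00020). Knockdown 2 was the highest library and knockdown 4 fell within the sham range. Camk2b changed by 0.35 in knockdown against sham, by -0.37 after scaling and by -0.98 over nuclear protein-coding genes, of which only the last passed (limma adjusted p = 0.0083). Without knockdown 4 the unscaled change of Camk2b was 0.59 and passed (limma adjusted p = 0.0066).

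The ratio of the subunits within a library does not depend on how libraries are scaled, but it can depend on which parts of the transcripts are covered. The log2 ratio of Camk2b to Camk2a was -0.90, -0.69 and -0.15 in sham, -2.52, -2.08 and -2.39 in control oligo, and -1.83, -2.02 and -2.53 in knockdown libraries. The mean linear ratio was 0.687 for sham, 0.2004 for control oligo and 0.234 for knockdown. No MCAO library reached the sham range. The exact two-sided permutation p was 0.1 against sham for either group, which is the smallest that 3 libraries against 3 allow, and 0.17 after adjustment over 15 tests.

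Dlg4 encodes PSD-95, the main scaffold of the density. Its TPM was 112, 115 and 99.8 in sham, 299, 349 and 284 with the control oligo, and 388, 391 and 236 with the knockdown. All 6 MCAO libraries were above the sham libraries, with knockdown 4 the lowest of them. Control oligo against sham gave 1.5 ± 0.13 (limma adjusted p = 3.2e-05) and 0.84 after scaling (adjusted p = 0.00022). Over nuclear protein-coding genes it was 0.20 and did not pass (adjusted p = 0.10). Against sham the knockdown changes of Dlg4 were 1.59, 0.87 and 0.26, and the last did not pass.

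Dlg3 encodes SAP102, a relative of PSD-95 that is prominent in young neurons. It had 56.3, 55.9 and 49.3 TPM in sham, 67.2, 70.3 and 49.8 with the control oligo, and 76.5, 75.8 and 47.6 with the knockdown. The groups overlapped, with control oligo 3 and knockdown 4 close to the lowest sham library. The change of control oligo against sham was 0.20 ± 0.16 (limma adjusted p = 0.30), against -0.46 after scaling (adjusted p = 0.0076) and -1.10 over nuclear protein-coding genes (adjusted p = 0.00025). Knockdown against sham gave 0.27, -0.44 and -1.05 for Dlg3, and only the last passed (limma adjusted p = 0.0021). Leaving out knockdown 4 made the unscaled change 0.50, which passed, and leaving out control oligo 3 made that of control oligo 0.35, which also passed. The log2 ratio of Dlg3 to Dlg4 lay between -1.04 and -0.99 in sham and between -2.51 and -2.15 after MCAO.

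Shank1 is mainly a brain scaffold of the postsynaptic density. It had 27.1, 20.4 and 14.1 TPM in sham, 59.7, 68.9 and 49.1 with the control oligo, and 44.6, 47.0 and 45.4 with the knockdown. Sham libraries were lowest and knockdown libraries lay between the other groups without overlap. The change of control oligo against sham was 1.52 ± 0.23 (limma adjusted p = 0.00064) and 0.87 after scaling (adjusted p = 0.0053). Over nuclear protein-coding genes it was 0.25 and did not pass (adjusted p = 0.32). For knockdown against sham Shank1 gave 1.16, which passed, 0.47 after scaling, which did not (limma adjusted p = 0.073), and -0.13 over nuclear protein-coding genes.

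Shank3 is the family member whose loss underlies Phelan-McDermid syndrome. Its TPM was 22.0, 15.2 and 16.6 in sham, 35.8, 44.3 and 38.5 with the control oligo, and 50.9, 38.4 and 39.3 with the knockdown. No MCAO library overlapped sham. Against sham, the control oligo libraries differed by 1.11 ± 0.17 (limma adjusted p = 0.00068) and 0.47 after scaling (adjusted p = 0.031), but -0.15 over nuclear protein-coding genes (adjusted p = 0.44). Knockdown against sham gave 1.22, 0.52 and -0.08 for Shank3, of which the first 2 passed.

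Shank2, the third Shank scaffold, had 13.9, 11.9 and 11.8 TPM in sham, 12.7, 20.6 and 8.73 with the control oligo, and 15.2, 9.09 and 13.6 with the knockdown. The control oligo libraries alone spanned the whole range of the gene. The change of control oligo against sham was 0.07 ± 0.27 (limma adjusted p = 0.82), -0.55 after scaling (adjusted p = 0.063) and -1.18 over nuclear protein-coding genes (adjusted p = 0.0046). In knockdown against sham Shank2 changed by -0.02, -0.69 and -1.30, and the last 2 passed. The log2 ratio of Shank2 to Shank1 was between -0.96 and -0.26 in sham and between -2.49 and -1.55 after MCAO, which do not overlap (exact permutation p = 0.1 for either group against sham, 0.17 adjusted).

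Dlgap3 encodes SAPAP3, a scaffold known from striatal synapses. It had 29.9, 30.9 and 29.1 TPM in sham, 70.2, 85.2 and 68.8 with the control oligo, and 101.7, 75.5 and 67.7 with the knockdown. Every MCAO library was more than 60 TPM and every sham library under 31 TPM. The change of control oligo against sham was 1.28 ± 0.13 (limma adjusted p = 9.6e-05), 0.63 after scaling (adjusted p = 0.0011) and 0.0036 over nuclear protein-coding genes (adjusted p = 0.98). Dlgap3 gave 1.4, 0.69 and 0.08 in knockdown against sham, and the last did not pass.

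Dlgap1 encodes SAPAP1, which joins PSD-95 to Shank. Sham libraries held 100.4, 109.7 and 86.4 TPM, control oligo libraries 97.7, 105 and 106, and knockdown libraries 112, 91.5 and 83.5. The groups overlapped in TPM. For control oligo against sham it changed by 0.06 ± 0.13 (limma adjusted p = 0.69), -0.60 after scaling (adjusted p = 0.0035) and -1.24 over nuclear protein-coding genes (adjusted p = 3.8e-05). Knockdown against sham gave -0.05, -0.76 and -1.38 for Dlgap1, and the last 2 passed. The log2 ratio of Dlgap1 to Dlgap3 was 1.57 to 1.83 in sham and 0.14 to 0.62 after MCAO.

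Against sham, 4 of the 5 ratios within families were lower in every MCAO library. These were Camk2b to Camk2a, Dlg3 to Dlg4, Shank2 to Shank1 and Dlgap1 to Dlgap3, with mean log2 differences between control oligo and sham of -1.75, -1.31, -1.49 and -1.25. Each had the smallest exact permutation p that the design allows (0.1, or 0.17 adjusted over 15 tests). Each of these 4 sets a member without a call in TPM over a member that passed higher, so the lower ratios largely restate those calls. How often other pairs of genes give such ratios was not computed. The ratio of Shank3 to Shank1 overlapped between sham and either MCAO group, with a difference of -0.41 for control oligo (exact p = 0.2) and 0.06 for knockdown (exact p = 0.7). The control oligo and knockdown comparisons share the sham libraries and are not separate evidence. These ratios use whole-gene TPM, and coverage along the transcripts differed between the groups, as described below. In coding bases alone, the scaled changes of control oligo against sham were -0.63 for Camk2b and 0.24 for Camk2a. They were -0.71 for Shank2 and 0.04 for Shank1, -0.997 for Dlg3 and 0.88 for Dlg4, and -0.97 for Dlgap1 and 0.67 for Dlgap3.

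**Figure D2:**
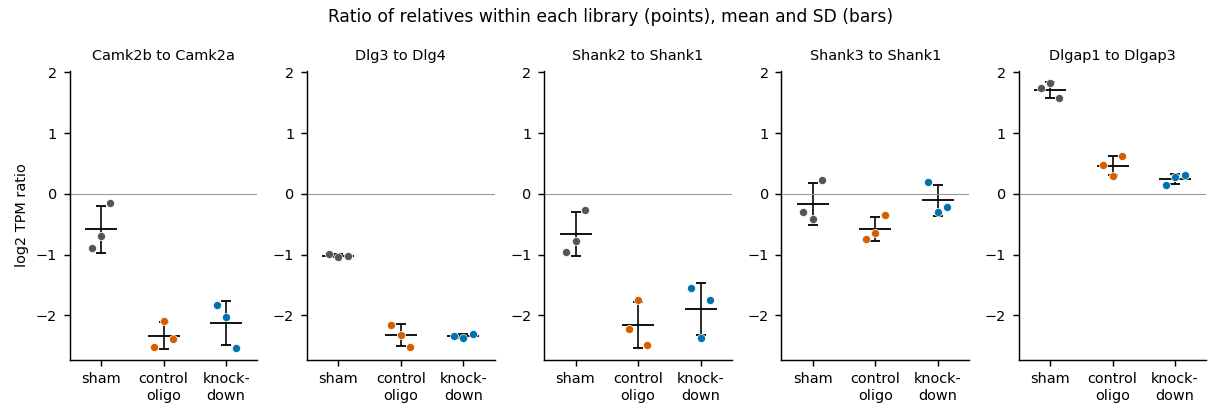
Log2 TPM ratio of related genes within each library. Points are libraries, bars are the mean and SD of 3 libraries, and the line at 0 marks equal TPM. In all but the ratio of Shank3 to Shank1, the 6 MCAO libraries lie below the 3 sham libraries.

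The changes against sham were not even along the transcripts. The tables give read coverage per exon, so coverage was summed over all transcripts of a gene at each base and averaged over coding bases and over 3′ UTR bases. Coding bases in a last exon carry the mean of that exon, which limits the separation. This split was chosen after the TPM values had been seen. It uses the GENCODE M21 models, and 3′ UTR bases outside every exon of the tables have no coverage by construction. These are most of the 3′ UTR bases of Dlg4 (837 of 8290 lie in exons of the tables) and some of Dlgap1 (3860 of 4496). With only bases inside those exons, the members that passed in the balance, in coding and in 3′ UTR bases were the same in all 3 comparisons. The balance of a gene is the log2 ratio of 3′ UTR to coding coverage, with 1 added to each, and it does not change when a library is rescaled except through the added 1.

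The balance was higher in control oligo than in sham for 7 of the 9 genes and lower for 0, by limma adjusted p under 0.05, beside 34.7% of 12652 genes higher and 7.28% lower. Its change was 3.53 ± 0.21 for Shank1, 1.98 ± 0.44 for Dlgap1, 1.53 ± 0.15 for Camk2a and 1.41 ± 0.16 for Dlgap3. Shank3 (1.28), Dlg3 (0.92) and Shank2 (0.73) also passed, whereas Dlg4 (0.15 ± 0.09, adjusted p = 0.24) and Camk2b (0.31 ± 0.35, adjusted p = 0.55) did not. The median change over all genes was 0.26, and the change of Shank1 stood at percentile 99.9 of all genes. The call of Dlgap1 was lost in 4 of the 6 fits that each left out 1 library (sham 1, sham 3, control oligo 1 or control oligo 3), with adjusted p between 0.060 and 0.071.

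For knockdown against sham 6 genes passed higher and 0 lower, beside 32.2% and 8.85% of all genes. Shank1 (3.35), Dlgap1 (1.69), Dlgap3 (1.5), Camk2a (1.32), Shank3 (1.19) and Dlg3 (0.73) passed. Shank2 gave -0.0042 with all libraries and 0.61 without knockdown 3 (limma adjusted p = 0.018), whose 3′ UTR coverage was 3.11 reads per base beside 16.5 to 19.3 in the other knockdown libraries. The Dlgap1 call was lost in 5 of the 6 fits that left out 1 library, all but the one without sham 2, with adjusted p between 0.054 and 0.072.

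Shank1 shows the pattern in raw coverage. Its 3′ UTR had 13.9, 10.99 and 9.45 reads per base in sham, 249, 244 and 254 with the control oligo, and 182, 197 and 169 with the knockdown. Its coding bases had 52.6, 36.2 and 32.2 in sham, 68.0, 90.8 and 55.96 with the control oligo, and 57.9, 60.4 and 56.5 with the knockdown. Coding coverage exceeded 3′ UTR coverage in all 3 sham libraries, and the order was the opposite in all 6 MCAO libraries. Along Shank1-203, divided into 20 bins and relative to the mean of the transcript, control oligo coverage rose from 0.28 in bin 12 to 2.24 in bin 13, which is still coding. It was 1.93 in bins 15 to 20, all 3′ UTR. The last coding bases printed above lie in the same last exon and carry the mean of that exon. Their own place relative to the rise is therefore not resolved. Sham coverage was 0.37 in bins 8 to 11, 1.25 in bin 13 and 0.38 in bins 15 to 20.

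Camk2a behaved alike with a smaller step. Its 3′ UTR had 468, 403 and 338 reads per base in sham, 2680, 2084 and 2343 with the control oligo, and 2502, 2359 and 2113 with the knockdown. Its coding bases had 727, 673 and 614 in sham, 1597, 1416 and 1120 with the control oligo, and 1514, 1601 and 1564 with the knockdown. Every sham library had more coverage of coding than of 3′ UTR bases, and no MCAO library did.

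With coding bases alone and median-ratio scaling, Dlg4 (0.88, limma adjusted p = 0.00011) and Dlgap3 (0.67, adjusted p = 0.00058) passed higher in control oligo against sham, beside 29.3% of 13847 genes. Dlg3 (-0.997), Dlgap1 (-0.97), Shank2 (-0.71) and Camk2b (-0.63) passed lower, beside 30.6%. Shank1 (0.04 ± 0.19, adjusted p = 0.86), Camk2a (0.24 ± 0.15, adjusted p = 0.21) and Shank3 (0.29 ± 0.13, adjusted p = 0.092) did not pass. In 3′ UTR bases Shank1 (3.36), Camk2a (1.52) and Shank3 (1.33) passed, as did Dlgap3 (1.91) and Dlg4 (0.81). For 3′ UTR bases 20.8% of genes passed higher and 21.0% lower, the latter with Dlg3 (-0.34) as the single member.

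In knockdown against sham the coding bases of Dlg4 (0.87), Dlgap3 (0.61) and Camk2a (0.36, limma adjusted p = 0.038) passed higher, beside 25.9% of genes. Dlgap1 (-1.01), Dlg3 (-0.90), Shank2 (-0.81) and Camk2b (-0.74) passed lower, beside 28.6%. In 3′ UTR bases 5 genes passed higher and 0 lower, beside 16.9% and 18.3%. They were Shank1 (2.92), Dlgap3 (2.02), Camk2a (1.5), Shank3 (1.31) and Dlg4 (0.85). The median change of all members was -0.29 in coding bases, below the 0.05 of all genes, and 0.85 in 3′ UTR bases, beside 0.02.

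**Figure D3:**
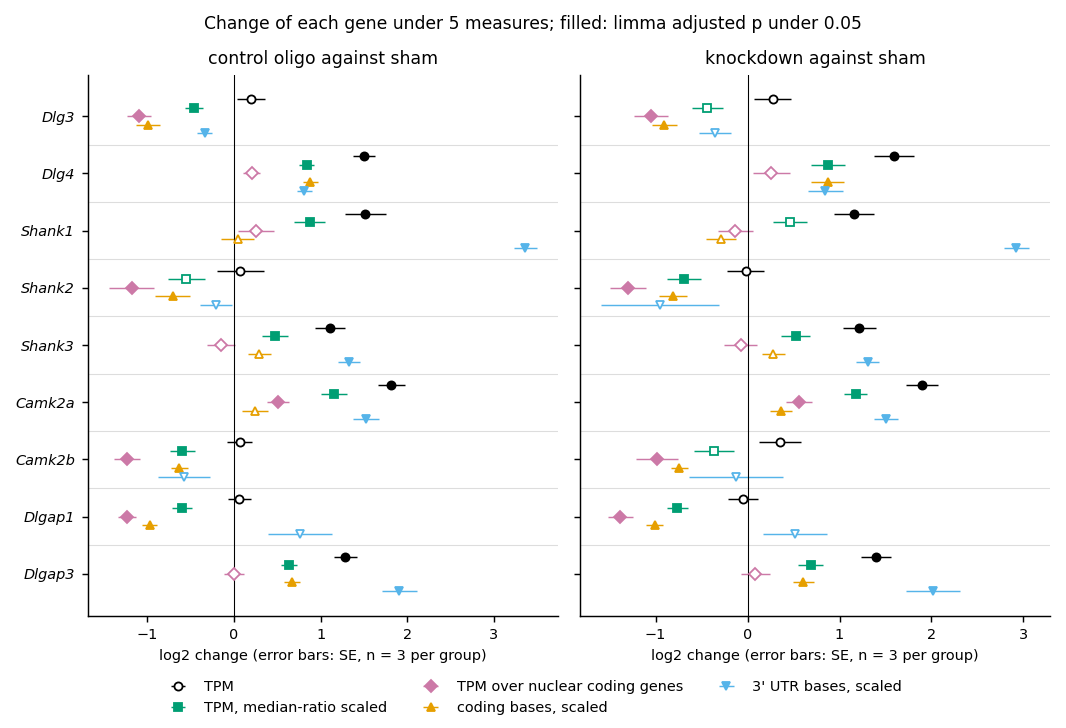
Log2 change against sham of each gene for TPM, TPM with median-ratio scaling, TPM over nuclear protein-coding genes, and scaled coverage of coding or 3′ UTR bases. Error bars are the SE with 3 libraries per group, and filled symbols passed a limma adjusted p of 0.05. For Shank1 the 3′ UTR value (3.36 in control oligo) stands far from the coding value (0.04), and for Dlg4 both are close (0.81 and 0.88, or 0.82 and 0.88 with only bases in exons of the tables).

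Coverage was also compared between the 2 sides of the midpoint of each leading transcript, which needs no coding annotation. Here only the coverage assigned to the leading transcript itself was used, not the sum over all transcripts of the gene. The log2 ratio of mean coverage 3′ of the midpoint to that 5′ of it had a median over all genes of 0.08 to 0.12 in sham and 0.36 to 0.52 after MCAO. For Shank1-203, which held 14.6% of Shank1 TPM in sham, it was 0.85 to 1.33 in sham and 2.92 to 3.72 after MCAO. In the bins along Shank1-203, sham coverage was instead higher on the 5′ side. It was 2.08 to 3.00 in the first 5 bins and 0.38 in bins 15 to 20. For Camk2a the log2 ratio of sides was between -0.80 and -0.55 in sham and between 0.14 and 0.53 after MCAO. The side with more coverage thus switched for Camk2a. All members but Camk2b (mean -0.18 in sham and -0.15 in control oligo) were higher without overlap in control oligo than in sham, that is 8 genes, beside 47.3% of all genes. In knockdown against sham 7 were, all but Camk2b and Shank2, beside 43.2%. The measures differ for Dlg4, whose ratio of sides was 0.67 to 1.17 in sham and 1.22 to 1.47 after MCAO while its 3′ UTR to coding balance did not pass. That ratio of sides follows Dlg4-203 alone, which held 11.4 to 81.2% of Dlg4 in the sham libraries. The balance of coverage along transcripts moved with the groups over all genes, and its part in the TPM changes of the members beyond the values given was not tested.

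**Figure D4:**
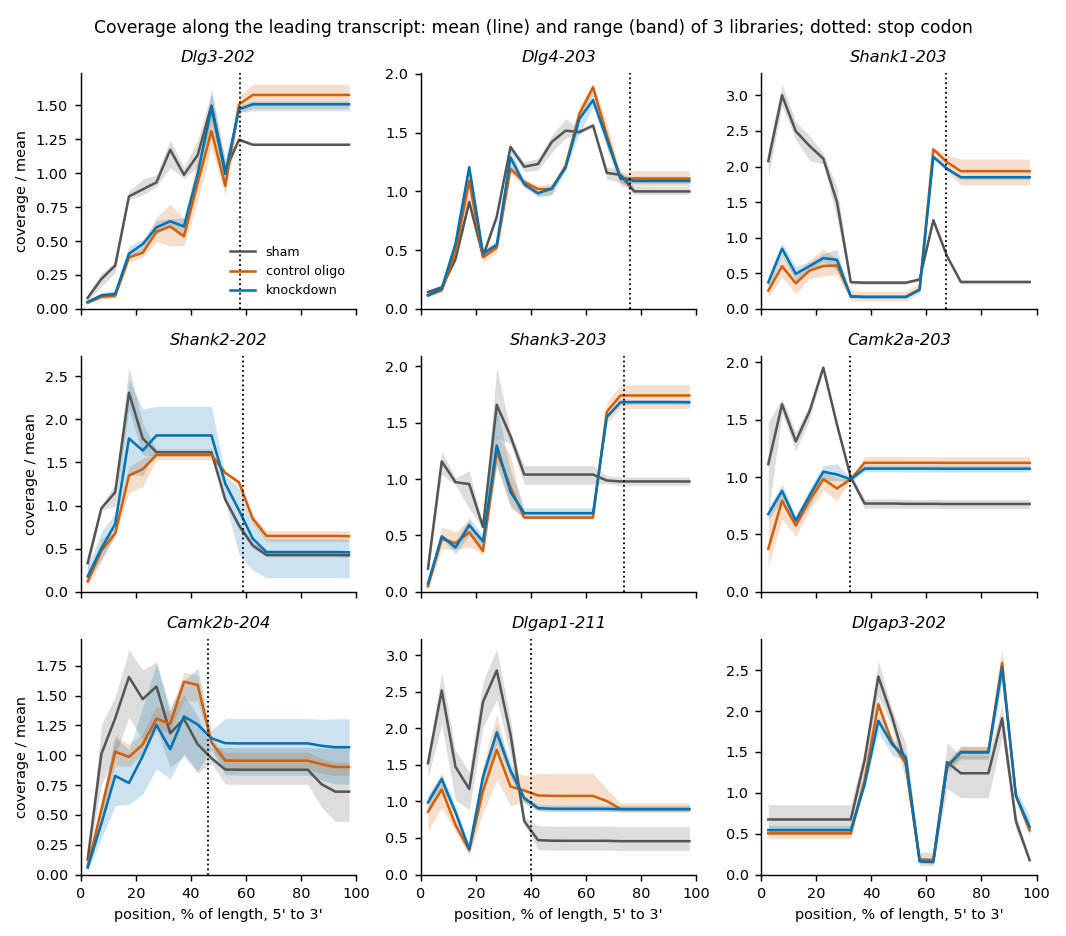
Coverage in 20 bins along the leading transcript of each gene, divided by the mean over the transcript, as the mean (line) and range (band) of 3 libraries per group. The horizontal axis is the position in percent of transcript length, and the dotted line is the stop codon, absent from Dlgap3-202, which ends with it. Shank1-203 in sham stands at 2.08 to 3.00 in the first 5 bins, at 0.37 in bins 8 to 11, at 1.25 in coding bin 13 and at 0.38 in the 3′ UTR. Control oligo rises from 0.28 to 2.24 between coding bins 12 and 13 and stands at 1.93 in the 3′ UTR.

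Transcript models shifted with this. Shank1-201, a model of 6477 bases with 0 bases of 3′ UTR, held 19.4, 14.1 and 10.8 TPM in sham and 4.54 to 14.9 after MCAO. Shank1-203, of 9826 bases, held 2.38 to 3.56 TPM in sham and 30.4 to 43.5 after MCAO. The share of Shank1-203 in the TPM of the gene was 14.6% ± 1.98 (SD, n = 3) in sham. It was 71.5% ± 8.25 after the control oligo and 70.9% ± 3.62 after the knockdown, without overlap against sham (exact permutation p = 0.1, or 0.27 adjusted over 27 tests). The assignment of reads to models depends on read length, and the coverage sums of single-exon transcripts differed between the 2 data sets. The part of this assignment in the shift was not tested.

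Dlgap1 shifted between models as well. Dlgap1-208, of 2895 bases and without a 3′ UTR, held 42.8, 31.4 and 34.5 TPM in sham and 9.68 to 14.9 after MCAO. Dlgap1-211, of 5276 bases, held 28.7, 54.0 and 29.6 TPM in sham, 67.2, 67.6 and 61.3 with the control oligo, and 76.9, 24.7 and 51.5 with the knockdown. In knockdown 3 the model Dlgap1-207 held 36.8 TPM in place of Dlgap1-211, beside at most 2.83 in any other library. Control oligo did not overlap sham in the share of Dlgap1-211 (63.7% against 37.3%, exact permutation p = 0.1), whereas knockdown did.

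Other members had unstable or steady models. Camk2a-203 held 96.3 to 99.3% of Camk2a in all 9 libraries. Dlg4-203 held 81.2, 11.4 and 53.2% of Dlg4 in the sham libraries and 73.2 to 82.05% after MCAO. Camk2b-204 ranged from 10.3 to 78.3% of Camk2b within and between groups, and Shank3-201 was at 0 TPM in control oligo 3, knockdown 2 and knockdown 4 but at 20.02 to 29.1 TPM in the other MCAO libraries. For Camk2b and Shank3, and for Dlg4 in sham, the level of the gene is thus steadier than that of its models. Between knockdown and control oligo the mean shares of the leading transcript were 74.1% and 78.2% for Dlg4, and 33.8% and 42.9% for Shank2. Neither overlapped between these groups (exact permutation p = 0.1, or 0.27 adjusted over 27 tests).

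**Figure D5:**
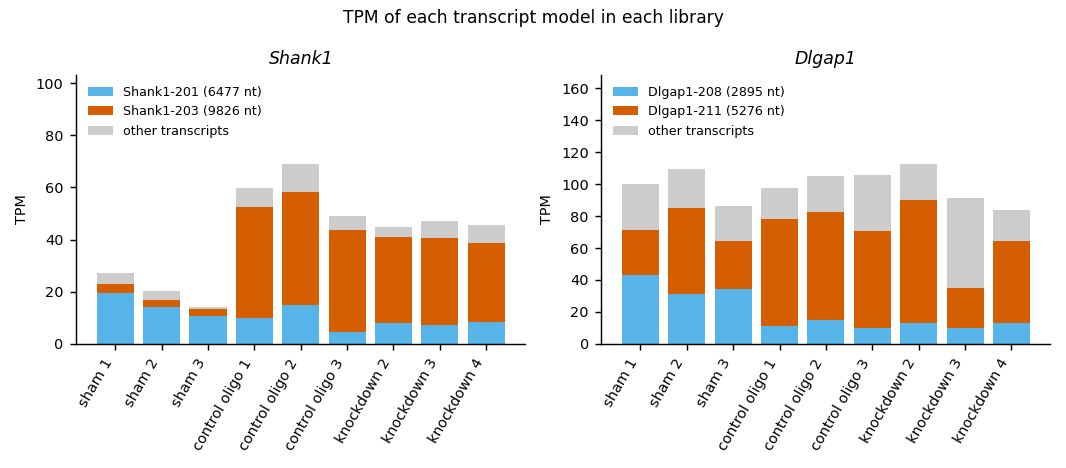
TPM of the transcript models of Shank1 and Dlgap1 in each library, stacked from 0, with other models in grey. Shank1-203 makes up most of Shank1 in the 6 MCAO libraries (30.4 to 43.5 TPM) and little of it in sham (2.38 to 3.56 TPM), and Dlgap1-208 is at 31.4 TPM or more in sham and at most 14.9 after MCAO.

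Knockdown of eRNA_06347 against the control oligo, the comparison within 1 data set, gave no call among the 9 genes in either direction by limma. Over all genes 1 passed higher (0.00585%) and 1 lower (0.00585%), and 321 had an unadjusted p under 0.05. Those 2 genes, mt-Ts2 (-6.27) and Gm7808 (3.48), are named after their values were seen. For the members every adjusted p was 1.0, also after scaling, over nuclear protein-coding genes, and in coding or 3′ UTR bases. Those measures called 0.0117%, 0.00722%, 0.00722% and 0.0079% of genes higher and 0.00585%, 0.0%, 0.0% and 0.0237% lower. The balance of 3′ UTR to coding coverage called no member either, beside 0.0% of genes higher and 0.0316% lower. The 95% intervals of the log2 change were -0.30 to 0.47 for Camk2a, -0.46 to 0.63 for Dlg4, -0.35 to 0.24 for Dlgap1 and -0.91 to 0.73 for Shank2, so changes of these sizes are not distinguished from 0 here.

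Shank1 was the single member whose knockdown and control oligo libraries did not overlap in TPM (44.6 to 47.0 against 49.1 to 68.9), beside 1.8% of all genes lower and 3.6% higher. Its change was -0.35 ± 0.16, with a 95% interval of -0.73 to 0.03 (limma adjusted p = 1.0). After median-ratio scaling it was -0.41 ± 0.11 (limma adjusted p = 1.0), again without overlap, beside 2.89% of all genes lower and 3.49% higher. Coding (-0.33) and 3′ UTR bases (-0.44) of Shank1 both pointed lower without passing. The log2 ratio of Shank3 to Shank1 did not overlap between knockdown (-0.29 to 0.19) and control oligo (-0.74 to -0.35), with an exact permutation p of 0.1 (0.17 adjusted).

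The other 8 members overlapped between knockdown and control oligo. Their log2 changes were 0.29 for Camk2b, 0.11 for Dlgap3 and Shank3, 0.09 for Dlg4, 0.08 for Dlg3 and Camk2a, -0.09 for Shank2 and -0.11 for Dlgap1. Leaving out knockdown 4 moved Camk2b to 0.52, Dlg4 to 0.33 and Dlg3 to 0.30, none of which passed. In knockdown 4 the levels of Dlg4 (236 TPM) and Dlg3 (47.6 TPM) were the lowest of the 6 MCAO libraries. Knockdown 4 also stood apart in marker genes, with the highest sums of neutrophil (1421 TPM, beside at most 339 in the other MCAO libraries), microglial (839, beside at most 412) and endothelial markers (457, beside at most 249). Its general neuronal (3878, beside at least 5036) and excitatory neuron markers (594, beside at least 728) had the lowest sums after MCAO. Their part in the values of knockdown 4 was not tested.

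Relatives of the members and the inhibitors of CaMKII were read beside them. Among guanylate kinases, Dlg1 (SAP97) averaged 93.2 TPM in sham and 68.5 in control oligo, and Dlg2 (PSD-93) 113 and 80.4, and both passed lower (-0.45 and -0.50, limma adjusted p = 0.037 and 0.019). The TPM call of Dlg1 was lost without sham 1, sham 2, sham 3 or control oligo 3 (-0.51 to -0.29), and that of Dlg2 without sham 1 (-0.41). They also passed lower after scaling (-1.11 and -1.16) and in coding bases (-1.17 and -2.03). Dlgap4 (SAPAP4) averaged 29.7 TPM in sham and 119 in control oligo and passed higher (1.95, scaled 1.3, coding bases 1.12). Dlgap2 (SAPAP2) did not pass in TPM (-0.11) and passed lower after scaling (-0.75). On the scale of nuclear protein-coding genes Dlg1 (-1.76), Dlg2 (-1.80) and Dlgap2 (-1.38) passed lower and Dlgap4 (0.67) higher.

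Of the CaMKII relatives, Camk2g passed higher in TPM (0.33, limma adjusted p = 0.040) and lower after scaling (-0.33, adjusted p = 0.039) in control oligo against sham, and Camk2d passed in neither (0.01 and -0.64). The TPM call of Camk2g was lost without sham 1, sham 3, control oligo 1 or control oligo 3 (0.26 to 0.34). Camk2n2, an inhibitor protein of CaMKII, had a mean of 21.2 TPM without MCAO, 105 after MCAO with the control oligo and 115 with the knockdown. It passed higher against sham for either group (2.24 and 2.36, scaled 1.59 and 1.66). Camk2n1, the more abundant inhibitor, averaged 505 TPM in sham and 721 in control oligo and passed higher in TPM (0.51) but not after scaling (-0.16). Over nuclear protein-coding genes Camk2n1 (-0.80), Camk2g (-0.97) and Camk2d (-1.27) passed lower and Camk2n2 (0.97) higher in control oligo against sham. Against control oligo the knockdown group gave no call for any of these 8 genes, with changes from 0.05 for Dlgap4 to 0.68 for Camk2d.

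Further scaffolds of the density went both ways against sham. The counts of the 4 lists below stand beside 52.6% of all genes higher and 12.8% lower in TPM, and 26.1% and 29.2% after scaling. Those in coding bases stand beside 29.3% of genes higher and 30.6% lower. Of 18 listed scaffolds 8 passed higher and 6 lower in control oligo (44.4% and 33.3%), with a median change of -0.17 beside 0.56 for all genes. After scaling 6 passed higher and 10 lower (33.3% and 55.6%, median -0.81 beside 0.01), and in coding bases 6 and 11. Begain, a PSD-95 binding protein, averaged 21.4 TPM in sham and 83.9 in control oligo (1.92, scaled 1.27, over nuclear protein-coding genes 0.65). Lrrc7, known as densin-180 and a partner of CaMKII, averaged 41.8 and 8.27 TPM (-2.23, scaled -2.86, over nuclear protein-coding genes -3.54).

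Among 17 genes of calmodulin kinase and phosphatase signalling 10 passed higher and 3 lower in control oligo against sham (58.8% and 17.6%, median 0.37), and 5 and 6 after scaling (29.4% and 35.3%, median -0.30), shares near those of all genes. Nrgn, neurogranin, which binds calmodulin in dendrites, averaged 278 TPM in sham and 1430.0 in control oligo (2.37, scaled 1.70, coding bases 2.0). Camkk1, a kinase that activates other calmodulin kinases, averaged 41.0 and 123 TPM (1.56, scaled 0.91). Nrgn passed over nuclear protein-coding genes (1.06) and Camkk1 did not (0.28).

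Of 16 regulators of small GTPases of the spine 12 passed higher and 2 lower in TPM (75.0% and 12.5%, median 0.80), and 4 and 3 after scaling (25.0% and 18.8%, median 0.15). In coding bases 4 passed higher and 9 lower. Git1 (1.32, scaled 0.66), Iqsec3 (1.77, scaled 1.13) and Agap2 (0.96, scaled 0.30) passed higher on both scales. With nuclear protein-coding genes as the total, Iqsec3 passed higher (0.51), Git1 did not pass (0.03) and Agap2 passed lower (-0.34, limma adjusted p = 0.015).

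Of 19 adhesion and receptor auxiliary genes 5 passed higher and 7 lower (26.3% and 36.8%, median -0.28), and 4 and 12 after scaling (21.1% and 63.2%, median -0.93). Nlgn1, the neuroligin of excitatory synapses, averaged 48.8 TPM in sham and 7.70 in control oligo (-2.55, scaled -3.18), whereas Nlgn2, the neuroligin of inhibitory synapses, averaged 27.4 and 79.9 (1.51, scaled 0.86). Shisa7, an auxiliary subunit of receptors, averaged 13.4 and 42.9 TPM (1.60, scaled 0.97). Nlgn1 passed lower over nuclear protein-coding genes (-3.87), and Nlgn2 (0.23) and Shisa7 (0.35) did not pass.

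The 4 lists gave similar counts in knockdown against sham. In the order above 8, 7, 12 and 5 genes passed higher (44.4%, 41.2%, 75.0% and 26.3%), beside 52.7% of all genes. Lower were 7, 2, 3 and 8 (38.9%, 11.8%, 18.8% and 42.1%), beside 12.5%. Over nuclear protein-coding genes 3, 2, 1 and 1 passed higher (16.7%, 11.8%, 6.25% and 5.26%) in control oligo against sham, beside 9.19% of all genes. Lower were 12, 12, 10 and 14 (66.7%, 70.6%, 62.5% and 73.7%), beside 52.0%. The adhesion and receptor list thus had more genes lower than higher on all 3 scales, whereas the larger side of the other lists changed with the scale. The median change of the scaffold list was negative on all 3 scales (-0.17, -0.81 and -1.45). Iqsec2 (1.55, scaled 0.85) and Ptprd (-1.35, scaled -2.06) were the further genes with the smallest p in knockdown against sham, and over nuclear protein-coding genes Iqsec2 did not pass (0.25) and Ptprd passed lower (-2.68). In knockdown against control oligo none of the 70 listed genes passed by limma. The smallest p in each list belonged to Akap5 (-0.87), Camk2d (0.68), Sipa1l3 (0.31) and Shisa7 (-0.49), all with an adjusted p of 1.0.

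The gene nearest to each member in profile, by the root mean square difference of centred log2(TPM + 1) over the 9 libraries, is given as a description. It was Rcan1 for Camk2a (0.09), Snrpd1 for Dlg4 (0.06), Npr2 for Shank1 (0.15), Manf for Shank3 (0.10) and Zfp341 for Dlgap3 (0.07). For the members with overlapping groups it was Fgf10 for Camk2b (0.07), Micu3 for Dlg3 (0.07), Dopey1 for Shank2 (0.12) and Vat1l for Dlgap1 (0.06). Group means were only 1.80 to 2.85 TPM for Fgf10 and 1.61 to 5.72 TPM for Zfp341. At such levels the added 1 shrinks log2 changes, so their likeness to far more abundant members is limited by it. Among the members themselves, Dlgap3 and Shank3 were each other's nearest (0.17), as were Dlg3 and Camk2b (0.17).

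GC content and gene length moved with the changes against sham over the whole table. The median scaled log2 change of control oligo against sham was -0.52 in the quintile of protein-coding genes with the lowest GC content of the leading transcript and 0.43 in the quintile with the highest. Dlg4, Shank1, Shank3, Dlgap3 and Camk2b are in the highest quintile, Shank2 and Camk2a in the next, Dlg3 in the middle and Dlgap1 (46.8% GC) below it. By the length of the gene on the genome the median was 0.39 in the shortest and -0.47 in the longest quintile. Dlgap1 (852 kb), Shank2 (423 kb) and Camk2b (96.7 kb) are in the longest quintile, Dlg4 (28.4 kb) in the middle and the others (50.3 to 67.8 kb) between. In knockdown against control oligo the medians of all quintiles lay between -0.01 and 0.06. The part of GC content and gene length in the members' changes was not tested.

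Marker genes of cell types were read as sums of TPM. General neuronal markers summed to 3270 to 3781 in sham and 3878 to 6081 after MCAO, and after scaling to 4741 to 5009 and 3395 to 4851. Excitatory neuron markers summed to 491 to 534 in sham and 594 to 961 after MCAO, after scaling to 677 to 738 and 520 to 754. Neutrophil markers (6 of 7 kept) had sums of 2.60 to 7.59 without MCAO, where Retnlg was at 0. After MCAO they reached 31.1 to 339 with the control oligo and 74.3 to 1421 with the knockdown. Of these 6, 6 passed higher in control oligo and 3 in knockdown against sham, and 5 and 3 after scaling.

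Microglial markers summed to 152 to 182 in sham and 304 to 839 after MCAO, endothelial markers to 89.6 to 112 and 210 to 457. After scaling these were 227 to 241 and 279 to 735 for microglia, and 135 to 149 and 165 to 400.2 for endothelial cells. Astrocyte markers summed to 919 to 1079 in sham and 1276 to 1630 after MCAO, and oligodendrocyte markers to 612 to 869 and 1037 to 1521. Inhibitory neuron markers summed to 421 to 440 and 597 to 1235. After scaling sham and MCAO overlapped for astrocytes (1381 to 1429 and 1001 to 1568), oligodendrocytes (809.6 to 1306 and 839 to 1464) and inhibitory neurons (576 to 634 and 523 to 1189). Striatal markers had sums of 79.2 to 96.4 without MCAO. After MCAO the sums were 244 to 298 with the control oligo and 155 to 303 with the knockdown (after scaling 119 to 128 without MCAO and 136 to 287 after it). Of the 7 striatal markers 4 passed higher and 0 lower in TPM in control oligo against sham, and 4 and 1 after scaling. Over nuclear protein-coding genes the counts were 1 and 2. In knockdown against sham they were 5 and 0, then 4 and 2, then 1 and 2. These counts stand beside the shares of all genes given above. Within this list Drd2 was at 0.15 to 0.23 TPM in sham and 0.31 to 1.29 after MCAO. The more abundant Drd1 was at 4.72 to 6.20 and 2.87 to 7.19, which overlap. Drd1 and Drd2 are a small part of the striatal sums, and the other markers of that list were read only by the sums and counts above. Slc17a7, the vesicular glutamate transporter of cortical neurons, was at 213 to 242 TPM in sham and 295 to 497 TPM after MCAO. It is 1 of the 7 excitatory neuron markers, which went both ways. Of these, 4 passed higher and 2 lower in TPM in control oligo against sham. After scaling the counts were 2 and 3, and over nuclear protein-coding genes 0 and 5, beside the same shares of all genes. In bulk tissue fewer cells of a type and less RNA per cell cannot be told apart, and the part of tissue composition in the members' values was not tested.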

How the data were processed

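The 9 deposited StringTie tables give for each of 131100 transcripts a TPM, an FPKM and a read coverage per base and exon, per the file headers and attributes. HISAT2 2.0, StringTie 1.3 and the build GRCm38/mm10 are named per the submitters' processing notes. StringTie ran as version 1.3.4d with options -e and -B, a merged annotation and no strand option, per the file headers. Values of overlapping genes are thus uncertain. Genes on the strand opposite to a member averaged at most 0.41 TPM, but these values come from the same assignment and cannot settle it. On the same strand, Mir7220 and Mir6982 overlap Camk2a and averaged 2.32 and 2.18 TPM. Per the labels' protocols, MCAO libraries were stranded poly(A) libraries. The library type of the sham samples is not given in the sources used here.

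TPM was summed over the transcripts of each gene, and genes with a TPM of at least 1 in at least 3 of 9 libraries were kept. Log2(TPM + 1) of the 6 libraries in a comparison entered a limma model with a mean-dependent prior variance (version 3.58.1 in R 4.3.3). P-values were adjusted over all genes after Benjamini and Hochberg, with a threshold of 0.05. Every adjusted p given is from such a fit. The fit was tested on simulated data. Ratios and transcript shares were compared with exact two-sided permutation tests. No read counts were used, so no count model was run. Coordinates and coding ends are from GENCODE M21.

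Named were all members, up to 3 genes per list and comparison with the smallest p that passed (or the 1 with the smallest p), 8 relatives and inhibitors, and the nearest gene in profile. The members and lists were chosen with earlier results of these data known. Alternatives were median-ratio scaling, TPM over nuclear protein-coding genes, FPKM, a pseudocount of 0.1, no filter, all 9 libraries, a replicate block and each library left out. The split by coding and 3′ UTR bases, also limited to bases in exons of the deposited tables, was added after seeing the data.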

Additional observations from a re-analysis of the deposited data

How the results depend on the processing

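The data set of the sham libraries, their read length and stroke cannot be told apart, and 3 libraries per group cannot reach an exact p under 0.1. Depth was known only as coverage, so no counting interval is given. Of the log2 changes of members and named genes recomputed under other settings for control oligo against sham, 331 kept sign and side of the threshold, 45 changed sign, 24 no longer passed and 5 newly passed. In knockdown against sham these counts were 327, 34, 23 and 21. In knockdown against control oligo 267 kept both and 33 changed sign. The cause was not tested. Most changes of sign against sham occurred with another scaling, with FPKM or with part of the transcript. The coding and 3′ UTR settings were added after seeing the data.

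In the comparison of control oligo with sham, 8990 genes passed higher and 2178 lower in TPM. Values that moved or changed sign were as follows. The number of genes passing higher was 4456 with median-ratio scaling, 1273 with TPM over nuclear protein-coding genes, 4854 with FPKM, 4064 with scaled coverage of coding bases and 2637 with scaled coverage of 3′ UTR bases. The number of genes passing lower was 4983 with median-ratio scaling, 7202 with TPM over nuclear protein-coding genes, 4562 with FPKM, 3839 with no filter and 4238 with scaled coverage of coding bases. The number of members passing higher was 1 with TPM over nuclear protein-coding genes and 2 with scaled coverage of coding bases. The number of members passing lower was 3 with median-ratio scaling, 4 with TPM over nuclear protein-coding genes, 3 with FPKM, 4 with scaled coverage of coding bases and 1 with scaled coverage of 3′ UTR bases. Median-ratio scaling gave -0.46 for Dlg3, -0.55 for Shank2, -0.60 for Camk2b, -0.60 for Dlgap1, -0.64 for Camk2d, -0.33 for Camk2g and -0.16 for Camk2n1. TPM over nuclear protein-coding genes gave -1.10 for Dlg3, -1.18 for Shank2, -0.15 for Shank3, -1.24 for Camk2b, -1.24 for Dlgap1, -0.34 for Agap2, -1.27 for Camk2d, -0.97 for Camk2g and -0.80 for Camk2n1. FPKM gave -0.39 for Dlg3, -0.46 for Shank2, -0.53 for Camk2b, -0.53 for Dlgap1, -0.55 for Camk2d, -0.27 for Camk2g and -0.092 for Camk2n1. Scaled coverage of coding bases gave -0.997 for Dlg3, -0.71 for Shank2, -0.63 for Camk2b, -0.97 for Dlgap1, -0.75 for Camk2d, -0.51 for Camk2g and -0.043 for Camk2n1. Scaled coverage of 3′ UTR bases gave -0.34 for Dlg3, -0.21 for Shank2, -0.58 for Camk2b, 0.23 for Dlgap2, -0.35 for Camk2d, -0.062 for Camk2g and -0.37 for Camk2n1. Log2 changes ran from -0.23 to 0.35 for Shank2, -0.017 to 0.18 for Camk2b, -0.030 to 0.14 for Dlgap1, -0.31 to 0.0059 for Dlgap2 and -0.35 to 0.38 for Camk2d with 1 library left out at a time. Differences of the transcript share in points ran from -1.76 to 3.12 for Shank2 and -1.44 to 9.12 for Dlgap3 in the same fits.

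In TPM 9007 genes passed higher and 2143 lower in knockdown against sham. The values that moved or changed sign there were these. The number of genes passing higher was 3883 with median-ratio scaling, 1137 with TPM over nuclear protein-coding genes, 4457 with FPKM, 3589 with scaled coverage of coding bases and 2144 with scaled coverage of 3′ UTR bases. The number of genes passing lower was 4629 with median-ratio scaling, 6629 with TPM over nuclear protein-coding genes, 4208 with FPKM, 3948 with no filter and 3956 with scaled coverage of coding bases. The number of members passing higher was 1 with TPM over nuclear protein-coding genes and 3 with scaled coverage of coding bases. The number of members passing lower was 2 with median-ratio scaling, 4 with TPM over nuclear protein-coding genes, 2 with FPKM and 4 with scaled coverage of coding bases. Median-ratio scaling gave -0.44 for Dlg3, -0.37 for Camk2b, -0.42 for Dlgap2, -0.0085 for Camk2d, -0.28 for Camk2g and -0.071 for Camk2n1. TPM over nuclear protein-coding genes gave -1.05 for Dlg3, -0.13 for Shank1, -0.076 for Shank3, -0.98 for Camk2b, -1.03 for Dlgap2, -0.62 for Camk2d, -0.90 for Camk2g and -0.69 for Camk2n1. FPKM gave -0.34 for Dlg3, -0.27 for Camk2b, -0.33 for Dlgap2 and -0.19 for Camk2g. Scaled coverage of coding bases gave -0.90 for Dlg3, -0.29 for Shank1, -0.74 for Camk2b, -0.83 for Dlgap2, -0.60 for Camk2d, -0.57 for Camk2g and -0.044 for Camk2n1. Scaled coverage of 3′ UTR bases gave -0.36 for Dlg3, -0.12 for Camk2b, 0.52 for Dlgap1 and -0.26 for Camk2n1. Leading transcripts alone gave log2 ratio differences of -1.47 for Shank3 to Shank1. Log2 changes ran from -0.16 to 0.18 for Shank2 and -0.17 to 0.044 for Dlgap1 with 1 library left out at a time. 3′ UTR to coding balances ran from -0.32 to 0.61 for Shank2 in the same fits. Log2 ratio differences ran from -0.088 to 0.25 for Shank3 to Shank1 in the same fits. Differences of the transcript share in points ran from -2.17 to 8.4 for Dlgap3 in the same fits.

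Between knockdown and control oligo, where 1 gene passed higher and 1 lower and no member had a call, values changed sign as follows. The number of genes passing higher was 2 with median-ratio scaling, 2 with a pseudocount of 0.1, 3 with all 9 libraries in 1 fit and 0 with the replicate block. The number of genes passing lower was 0 with TPM over nuclear protein-coding genes, 6 with no filter, 0 with the replicate block, 0 with scaled coverage of coding bases and 3 with scaled coverage of 3′ UTR bases. Median-ratio scaling gave -0.0014 for Dlgap4. Scaled coverage of coding bases gave -0.013 for Dlg4, -0.010 for Shank3, -0.11 for Camk2b, -0.065 for Dlgap3, -0.0094 for Dlg2, -0.092 for Dlgap2, -0.063 for Camk2g, -0.00034 for Camk2n1 and -0.027 for Camk2n2. Scaled coverage of 3′ UTR bases gave -0.016 for Dlg3, -0.021 for Shank3, -0.016 for Camk2a, -0.038 for Sipa1l3, -0.18 for Dlg2 and -0.15 for Dlgap4. Leading transcripts alone gave log2 ratio differences of 0.20 for Dlg3 to Dlg4 and -0.068 for Shank2 to Shank1. Only transcripts with a TPM of 1 in 3 libraries gave transcript share differences of 0.59 points for Shank1 and -0.103 points for Camk2a. The genes passing higher ran from 0 to 2 with 1 library left out at a time. Log2 changes ran from -0.077 to 0.30 for Dlg3, -0.036 to 0.33 for Dlg4, -0.37 to 0.21 for Shank2, -0.020 to 0.19 for Shank3, -0.0020 to 0.20 for Camk2a, -0.056 to 0.23 for Dlgap3, -0.035 to 0.23 for Dlg1, -0.020 to 0.20 for Dlg2, -0.11 to 0.18 for Dlgap4, -0.11 to 0.35 for Camk2g, -0.025 to 0.33 for Camk2n1 and -0.070 to 0.33 for Camk2n2 in the same fits. 3′ UTR to coding balances ran from -0.089 to 0.028 for Dlg4 and -0.049 to 0.25 for Dlgap3 in the same fits. Log2 ratio differences ran from -0.11 to 0.074 for Dlg3 to Dlg4 in the same fits. Differences of the transcript share in points ran from -4.7 to 3.56 for Shank1, -0.0649 to 0.204 for Camk2a, -11.4 to 27.5 for Camk2b, -19.4 to 1.3 for Dlgap1 and -2.38 to 1.06 for Dlgap3 in the same fits.

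The labels number the libraries, but sham and MCAO libraries come from different data sets and knockdown and control oligo share only the numbers 2 and 3. Same-numbered libraries correlated in their deviations from the group means by 0.23 and 0.07 between knockdown and control oligo, and by -0.07 to 0.12 against sham, so they were not taken as pairs. In a fit with the replicate block, a library whose number is absent from the other group does not enter the change. Both knockdown comparisons then rest on the libraries numbered 2 and 3 of each group. With the replicate block 0 genes passed higher and 0 lower in knockdown against control oligo. In knockdown against sham the replicate block gave 0.53 for Dlg3 and 0.51 for Camk2b, which passed, and 0.058 for Dlgap1, which did not. Blocking and the loss of the unmatched libraries cannot be told apart in these fits.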
